A study of Mus musculus with 41 samples.

Results

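The genes that decide whether a cell leaves G1 were followed through a mouse model of malignant mesothelioma (MM) in which 2 of them had been deleted. They were 3 D-type cyclins (Ccnd1, Ccnd2 and Ccnd3), the kinase Cdk6, 5 inhibitors of cyclin-dependent kinases (Cdkn2a, Cdkn2b, Cdkn2c, Cdkn1a and Cdkn1b) and Mtap, the neighbor of Cdkn2a that is often lost with it in human MM. The genes were chosen by name, and all 10 had a row in the RNA count table of 27197 genes. RNA had been sequenced from 6 cell lines and from tumor tissue in 9 libraries, and low-coverage DNA from 14 tumors. The BNC lines (JB81, JB91 and JB97) were Bap1-/-;Nf2-/-;Cdkn2ab-/-, and the NC lines (JB84, JB87 and JB93) were Nf2-/-;Cdkn2ab-/-, so that both groups lacked Nf2 and Cdkn2ab and the contrast between them was Bap1. The labels list tumors of both genotypes, but no column of the 9 could be tied to a genotype, so the tumors (B1, B2, B13, B14, B19, B27, B28, B45 and one headed only 22) entered as 1 group. No library came from normal mesothelium or from a line with an intact Cdkn2a and Cdkn2b, so none of the values below is a background level for a Cdkn2ab wild-type cell.

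Deletion in the model depended on an adenovirus that carried Cre under the CMV promoter, injected into the pleural space of mice of mixed FVB, Bl6 and 129Ola background. The mice were 6 to 8 weeks old at infection and had cyclosporine A in their water around that time. The CMV promoter is active in most cell types, so the cells that recombined were set by where the virus went. In the Cdkn2ab mice Ink4a and Ink4b were already deleted in every cell through the germline, whereas Arf stayed intact until Cre removed it. Host cells of a tumor (leukocytes, vessels, muscle) that the virus did not reach would therefore keep Arf but not Ink4a or Ink4b. Each line grew out of a piece of 1 primary tumor and was used at early passage. In bulk samples such as these, fewer cells of a type and less RNA of a gene per cell cannot be told apart.

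The D-type cyclins are made in response to growth signals and switch on CDK4 and CDK6. These kinases phosphorylate the retinoblastoma protein (Rb), which then releases the E2F factors that transcribe the genes of S phase. The inhibitors act at separate points: the INK4 proteins (p16Ink4a from Cdkn2a, p15Ink4b from Cdkn2b and p18Ink4c from Cdkn2c) bind CDK4 and CDK6, while p21 (Cdkn1a) and p27 (Cdkn1b) bind cyclin-CDK complexes, above all those of CDK2. Cdkn2a also encodes p19Arf, which shares its second exon with p16Ink4a in another reading frame and protects p53 by holding back Mdm2, and p53 in turn switches on Cdkn1a. Loss of CDKN2A is among the most frequent lesions of human MM.

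On the mm10 assembly, Cdkn2a lies on the minus strand at chr4:89274471-89294653, with the first exon of the Arf transcript at 89294334-89294653, the first exon of Ink4a at 89281986-89282192 and the shared second exon at 89276645-89276985. Cdkn2b follows on the same strand at chr4:89306299-89311039, and Mtap lies on the other side on the plus strand at chr4:89137122-89181081. Cdkn2c is on the same chromosome but far off, at chr4:109660876-109667189. Cdkn1a (chr17:29090976-29100727) and Ccnd3 (chr17:47505051-47599691) share chromosome 17. Cdkn1b (chr6:134920401-134925513) and Ccnd2 (chr6:127125162-127152193) share chromosome 6. Ccnd1 is at chr7:144929931-144939925 and Cdk6 at chr5:3341485-3531008.

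The stretches before 4 of the start sites are shown because they are the regulatory ends of the deleted locus and of the p53 target among the inhibitors. They were read from RefSeq's promoter windows on GRCm38.p6, 5′ to 3′ on the strand of the gene, and bases that the gene annotation counts as first exon were left off. Capitals mark a motif match, and a sequence with no capitals had none.
Cdkn2a, Arf start, chr4:89294654-89294869, minus strand: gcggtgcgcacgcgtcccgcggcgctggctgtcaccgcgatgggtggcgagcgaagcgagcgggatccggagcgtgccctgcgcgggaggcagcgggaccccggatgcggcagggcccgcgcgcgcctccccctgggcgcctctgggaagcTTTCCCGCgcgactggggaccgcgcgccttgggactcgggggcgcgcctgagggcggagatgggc
Cdkn2a, Ink4a start, chr4:89282193-89282442, minus strand: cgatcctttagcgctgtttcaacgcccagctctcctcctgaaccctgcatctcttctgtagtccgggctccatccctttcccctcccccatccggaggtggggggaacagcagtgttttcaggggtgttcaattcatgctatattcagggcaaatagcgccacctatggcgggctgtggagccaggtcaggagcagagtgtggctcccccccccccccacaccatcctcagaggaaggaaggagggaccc
Cdkn2b, chr4:89311040-89311282, minus strand: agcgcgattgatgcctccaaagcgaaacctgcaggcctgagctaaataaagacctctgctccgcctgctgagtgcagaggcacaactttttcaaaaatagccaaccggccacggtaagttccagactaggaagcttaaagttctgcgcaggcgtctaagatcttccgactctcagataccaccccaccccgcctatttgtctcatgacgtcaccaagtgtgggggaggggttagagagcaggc
Cdkn1a, distal start, chr17:29090729-29090975, plus strand: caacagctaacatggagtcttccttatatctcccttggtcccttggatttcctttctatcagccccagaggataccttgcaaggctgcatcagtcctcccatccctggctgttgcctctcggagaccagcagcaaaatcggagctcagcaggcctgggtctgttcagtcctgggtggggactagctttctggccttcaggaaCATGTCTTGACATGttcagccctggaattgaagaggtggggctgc

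The motifs were searched on both strands in the 250 bases before each of 32851 RefSeq start sites, 12 of which belonged to 8 of the members. The E2F motif TTTCCCGC stood in the Arf window, from 99 to 92 bases before the RefSeq start, and in 0.895% of all windows. The second E2F form, TTTGGCGC, was in 0.417% of all windows and in none of the members'. The p53 half-site pair CATGNNNNNNCATG stood in the distal Cdkn1a window, from 48 to 35 bases before the start, and in 0.49% of all windows. GGAATG, the short motif of the TEAD factors through which Yap1 acts, stood in 1 window of Ccnd3 and in 12.6% of all windows. The table held no window of Ccnd1 or Ccnd2. A match gives the presence of these letters and does not show that a factor binds there.

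The 6 lines had between 12377675 and 23936922 counted reads and the tumors between 8158740 and 21851974. Levels are given as CPM, the counts of a gene relative to the total of its library, after scaling by trimmed mean of M-values (TMM) over all 15 libraries, and 3 counts, the limit that a count of 0 allows, corresponded to between 0.127 and 0.773 CPM. Bap1 was at 41.4, 42.7 and 37.5 CPM in JB81, JB91 and JB97 and at 57.0, 56.2 and 61.0 CPM in JB84, JB87 and JB93, so the groups did not overlap, but reads of exons outside the deleted part count in full. Lines within a genotype were not equally distant from each other. JB81 and JB91 differed by a biological coefficient of variation of 0.0386 and JB84 and JB93 by 0.0578, against 0.457 to 0.496 for the other pairs within a genotype. Both close pairs differed by more than counting noise and were kept as separate libraries, but the members of each pair were run under different prefixes, and whether they are independent lines is not known. P-values that count them separately may therefore be too small, and values with each pair summed are given where they change a result. Leukocyte markers summed to between 4.15 and 46.5 CPM in the lines and to between 1223 and 7687 CPM in the tumors, and Ptprc, which defines leukocytes, reached at most 0.0764 CPM in a line. The mesothelial markers Msln and Krt8 were high in the NC lines (835 to 2041 and 197 to 361 CPM) and near 0 in the BNC lines JB81 and JB91 (Msln 0.212 and 0.428 CPM), while Wt1 was present in all 6 lines at 72.9 to 127 CPM. In tumor B1, Gm42418 and Lars2 took 38.5% of all reads, against 10.8% in B13 and 0.416% to 2.90% in the other libraries.

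**Figure D1:**
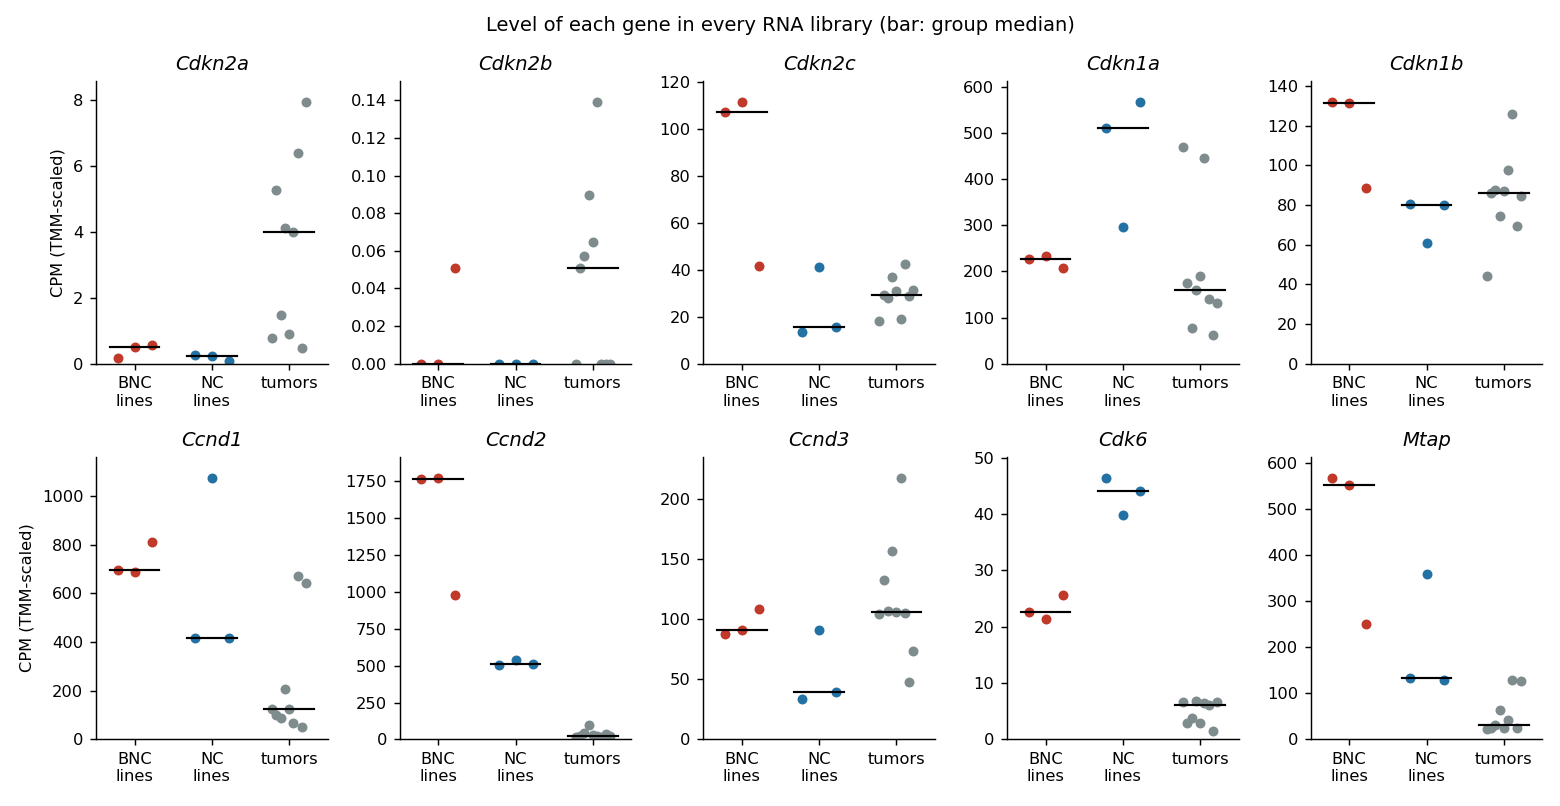
Level of each of the 10 genes in every RNA library, in TMM-scaled CPM on a linear axis that starts at 0 and differs between panels. Each point is 1 library (BNC lines red, NC lines blue, tumors gray) and the bar is the group's median. Ccnd2, Cdk6 and Mtap lie lower in all 9 tumors than in any line, and Cdkn2b is at or under 3 counts everywhere.

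Transcripts of the deleted locus were close to absent from the lines. Cdkn2b was counted 0 times in 5 lines and 1 time in JB97, which is under the limit that 3 counts set. Cdkn2a had 4, 12 and 11 counts in JB81, JB91 and JB97 (0.170, 0.513 and 0.558 CPM). The NC lines JB84, JB87 and JB93 had 4, 3 and 2 counts (0.252, 0.229 and 0.0915 CPM). The 2 genotypes overlapped, and neither gene had the counts to be tested between them. Which exon these reads fell on is not given by a count per gene.

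In the tumors Cdkn2a was found at a higher level than in the lines. Its lowest, median and highest levels were 0.466, 3.99 and 7.93 CPM in the 9 tumors, and 0.0915, 0.240 and 0.558 CPM in the 6 lines. B45, at 0.466 CPM from 11 counts, lay within the range of the lines, and B1, at 0.773 CPM from 3 counts, cannot be placed above it. All 6 lines together had 36 counts and the 9 tumors 611. Averaged over each group the fitted difference was 12.3-fold (log2 3.62 ± 0.71 SE, adjusted p = 0.000585 in edgeR's quasi-likelihood test, adjusted after Benjamini and Hochberg over all genes tested). Cdkn2a passed the filter on low counts only through the tumors, so its fold and p are weaker evidence than those of the other members. With no filter the log2 difference was 3.62 and the edgeR adjusted p 0.00101, and with a filter of 10 counts in every sample the gene was not tested. Set against the BNC lines alone the adjusted p was 0.0122 in edgeR's test, short of the threshold of 0.01. Cdkn2b stayed at or under 3 counts in each tumor, 8 counts in all, so no level could be given for it at this depth. The highest Cdkn2a levels were in tumor 22 (7.93 CPM, 137 counts), B28 (6.38 CPM, 138 counts) and B2 (5.27 CPM, 104 counts).

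The 9 tumors held leukocyte RNA in unequal amounts, which gave a way to set the Cdkn2a level beside it. The leukocyte score, the mean log2(CPM + 1) of 13 markers, was lowest in B28 (4.14) and in tumor 22 (4.60), which had the most Cdkn2a. By the summed CPM of the markers B28 (1223 CPM) was again lowest, but B45 (1965 CPM) lay below 22 (2164 CPM). Over the 9 tumors Pearson's r between the score and log2 Cdkn2a was -0.18 (exact permutation p = 0.627) and Spearman's rho was -0.25 (exact permutation p = 0.521). Adjusted over 9 members the values were 0.705 and 0.669. Without the tumors farthest from the median score, B2 and B28, r was -0.22 (exact permutation p = 0.628). When B28 and 22 were left out together, r over the remaining 7 tumors was 0.57 with an exact permutation p of 0.173, so even its sign rested on these tumors. The lowest r over the 9 tumors were those of Mtap (-0.62, exact permutation p = 0.0786, rho -0.43) and Ccnd1 (-0.58, exact permutation p = 0.108, rho -0.42), both 0.488 after adjustment. With the other host-cell markers as the score r was -0.77 for Mtap (exact permutation p = 0.00925, adjusted 0.0833) and -0.63 for Ccnd1 (exact permutation p = 0.072, adjusted 0.324). B28 and 22 stood apart from the other tumors in both genes, and within the other 7 r was 0.10 for Mtap (exact permutation p = 0.834) and 0.32 for Ccnd1 (exact permutation p = 0.487), so these relations rested on B28 and 22. The highest positive r was 0.41 for Ccnd3 (exact permutation p = 0.276, rho 0.52), and no member passed the adjustment.

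**Figure D2:**
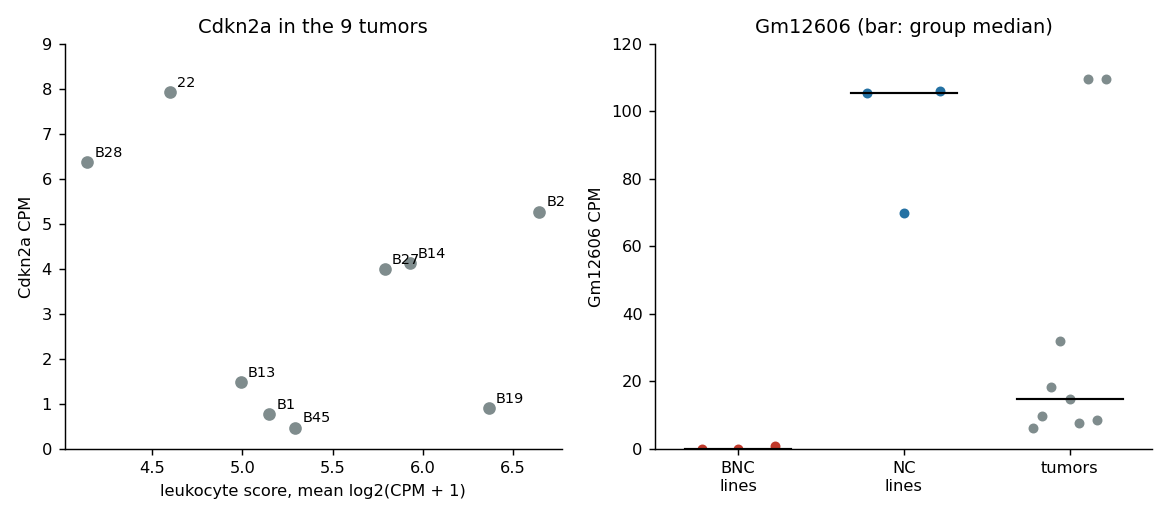
Left, Cdkn2a level (CPM) against the leukocyte score (mean log2(CPM + 1) of 13 markers) in the 9 tumors, 1 point each. Right, level of the noncoding RNA Gm12606 in CPM in every library, with the bar at the group's median. Tumors 22 and B28 have the highest Cdkn2a and the lowest leukocyte scores, and they are also the tumors with Gm12606 at 110 CPM.

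Some noncoding neighbors of the deleted locus were counted in the NC lines and hardly at all in the BNC lines, although none passed the threshold in edgeR's test. Within 500 kb of Cdkn2a and Cdkn2b the table held 23 genes, of which 7 exceeded 10 counts in any library. Gm12606, a long noncoding RNA at chr4:89235699-89273403 on the minus strand, whose 5′ end lies close to the 3′ end of Cdkn2a, was at 0, 0 and 0.711 CPM in JB81, JB91 and JB97. In JB84, JB87 and JB93 it was at 105, 69.9 and 106 CPM, and in the tumors at 6.18 to 110 CPM. The lowest NC line was thus far above the highest BNC line. Its adjusted p in edgeR's quasi-likelihood test was 0.0142, over the threshold of 0.01. Wincr1 had an adjusted p of 0.0216 in the same edgeR test and was at 1.30 to 2.33 CPM in NC lines and at most 0.102 CPM in the BNC lines. Gm12602 had an edgeR adjusted p of 0.0227, with 1.07 to 3.02 CPM against at most 0.102 CPM. These 3 genes entered the test only through the NC lines, where they are high, so their p-values are weak evidence. With the close pairs summed 0 genes of all tested had an edgeR adjusted p under 0.05. Dmrta1 lay the other way, at 3.603, 2.61 and 0.355 CPM in JB81, JB91 and JB97 and 1.07, 0 and 0.503 CPM in JB84, JB87 and JB93, with overlap (edgeR adjusted p = 0.282). Gm26525 reached at most 0.137 CPM in a line, overlapped and was not tested. In B28 and 22, the tumors with the most Cdkn2a, Gm12606 was at 110 and 110 CPM and Wincr1 at 4.39 and 15 CPM, whereas Wincr1 was at or under 3 counts in the other 7. Because the counting strand is not given, reads of a gene and of one that overlaps it on the other strand cannot be told apart.

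Tumor DNA was lower at the first exons of Cdkn2a and at Cdkn2b and not at Mtap. The values are log2 ratios of 20-kb bins to normal tail DNA, which give the tumor and host cells together. The bin with both Cdkn2a first exons (chr4:89280001-89300000) had a lowest, median and highest ratio of -1.43, -0.63 and -0.05 in the 14 tumors, and 11 of 14 were below -0.5. The bin of Cdkn2b (chr4:89300001-89320000) had -1.66, -0.99 and -0.06, with 13 of 14 below -0.5. B20 and B21 carry the same animal number in their column names, so the tumors are not all from separate mice, and both are among those counted as low. The bin with the shared second exon of Cdkn2a (chr4:89260001-89280000) had a median of -0.14, and no tumor was below -0.5. Of 114298 autosomal bins, 0.202% had a median as low as the first-exon bin, 0.0647% as low as the Cdkn2b bin and 2.17% as low as the second-exon bin. At Mtap the ratio ran from -0.10 to 0.09 with a median of -0.01, and the medians of the other 7 members were all within -0.11 to -0.01. Of the 5 tumors named in both tables, the first-exon ratios in B2, B13, B14, B19 and B28 were -0.39, -0.53, -0.60, -0.68 and -1.11, and Cdkn2a RNA was at 5.27, 1.49, 4.13, 0.902 and 6.38 CPM in the same order. B28 thus had the lowest DNA ratio of the 5 and the most Cdkn2a RNA.

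**Figure D3:**
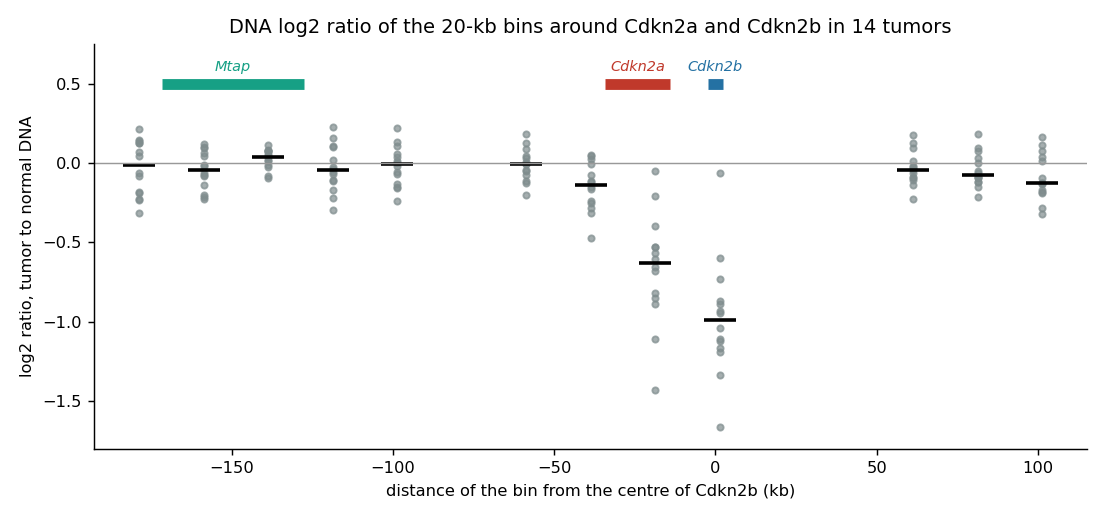
DNA log2 ratio of tumor to normal tail in the 20-kb bins around Cdkn2a and Cdkn2b, against the distance of the bin from the center of Cdkn2b in kb. Each point is 1 of 14 tumors, the black bar is the bin's median, and colored blocks give the extent of the genes. The low bins are those of the Cdkn2a first exons and of Cdkn2b, with medians of -0.63 and -0.99, and the bins over Mtap lie around 0.

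Between the BNC and NC lines no member passed in edgeR's test. The threshold was set after the study's methods (adjusted p under 0.01 and a change over 2-fold). In edgeR's test it was passed by 1.10% of the 12376 genes tested, and 8 members had the counts to be tested. The study's own test was DESeq2, which at this threshold called 3 members and 1996 of the 13563 genes it tested. At an adjusted p under 0.05 in edgeR's test, 3 of the 8 passed, Ccnd2 higher in BNC lines and Cdkn1a and Cdk6 lower, against 14.2% of all genes. In 5 of the 8 the libraries of the genotypes did not overlap, against 42.3% of all genes, so separation by itself says little with 3 lines a group. The median log2 fold change was 0.68 over the 8 members and -0.00 over all genes tested.

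None of the D-type cyclins passed the threshold between the genotypes in edgeR's test, and Ccnd2 had the lowest adjusted p of the 3. Cyclin D2, Ccnd2, was at 1767, 1773 and 978 CPM in JB81, JB91 and JB97 and at 502, 541 and 509 CPM in JB84, JB87 and JB93. Each BNC line was above each NC line, and the fitted difference was 2.81-fold (log2 1.49 ± 0.27 SE, edgeR adjusted p = 0.0246). Cyclin D1, Ccnd1, the D cyclin most often amplified in human tumors, was at 696, 689 and 810 CPM in the BNC lines and at 415, 1076 and 417 CPM in NC lines, in the same order of lines. The NC line JB87 was above all BNC lines, and the fitted log2 difference was 0.14 ± 0.41 SE. Cyclin D3, Ccnd3, was at 87.2, 90.7 and 109 CPM in the BNC lines and at 33.6, 91.2 and 39.6 CPM in NC lines. Again JB87 lay with the BNC lines, and the edgeR adjusted p was 0.23 for a log2 difference of 0.74 ± 0.40 SE. Cdk6, the catalytic partner of the D cyclins, went the other way, at 22.7, 21.4 and 25.6 CPM in the BNC lines and 46.5, 39.9 and 44.1 CPM in NC lines. All BNC lines lay below all NC lines, a 1.94-fold difference (log2 -0.96 ± 0.14 SE, edgeR adjusted p = 0.0161).

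Among the inhibitors Cdkn2c had a positive and Cdkn1a a negative fitted difference, and neither passed the threshold of 0.01 in edgeR's test. Cdkn2c, which encodes p18Ink4c, was at 107, 112 and 41.8 CPM in JB81, JB91 and JB97 and at 13.6, 41.2 and 15.7 CPM in JB84, JB87 and JB93. The groups were kept apart only by the narrow gap between JB97 and JB87, and the log2 difference was 1.84 ± 0.58 SE (edgeR adjusted p = 0.0834). Cdkn1a, which encodes p21, was at 226, 234 and 208 CPM in the BNC lines and at 512, 295 and 568 CPM in NC lines. Every BNC line was below every NC line, and the difference was 2.13-fold (log2 -1.09 ± 0.26 SE, edgeR adjusted p = 0.0442). Cdkn1b, which encodes p27, was at 132, 131 and 88.8 CPM in the BNC lines and 80.4, 60.7 and 80.0 CPM in NC lines. The groups did not overlap, but the log2 difference of 0.62 ± 0.22 SE had an edgeR adjusted p of 0.104. Mtap, an enzyme of methionine salvage, was at 569, 554 and 250 CPM in the BNC lines and at 134, 359 and 130 CPM in NC lines, where JB87 was above JB97 (log2 1.09 ± 0.53 SE, edgeR adjusted p = 0.195).

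These line comparisons depended on JB87 and on the treatment of the close pairs. Without JB87, edgeR's test put Cdkn1a (adjusted p = 0.00125) and Ccnd3 (adjusted p = 0.00236) past the threshold, along with 2574 of all 13091 genes tested. Without JB97 it put Ccnd2 past it (edgeR adjusted p = 0.00309), along with 984 of 12991 genes. Each of these fits left 1 genotype with its close pair alone, so the p-values may be too small. With each close pair summed to 1 library the lowest edgeR adjusted p of a member was 0.359, that of Ccnd2. DESeq2 on all 6 lines called Cdkn2c (adjusted p = 0.00793), Cdkn1a (adjusted p = 0.00322) and Ccnd2 (adjusted p = 1.29e-05). It called 1996 of the 13563 genes it tested. Markers of the mesothelial lineage of these lines moved with the genotypes too, with a sum of 130 to 676 CPM in BNC and 2137 to 3051 CPM in NC lines. So did 2 lists of other cell types. The endothelial sum was 1.44 to 7.92 and 49.1 to 57.5 CPM, with Pecam1 at no more than 0.254 CPM in any line. The muscle sum was 1.91 to 12.1 CPM in BNC and 34.1 to 72.8 CPM in NC lines. The leukocyte sum was above 40 CPM in JB81 and JB91 only, where Ptprc was at 0. Their part in the differences of the members was not tested.

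**Figure D4:**
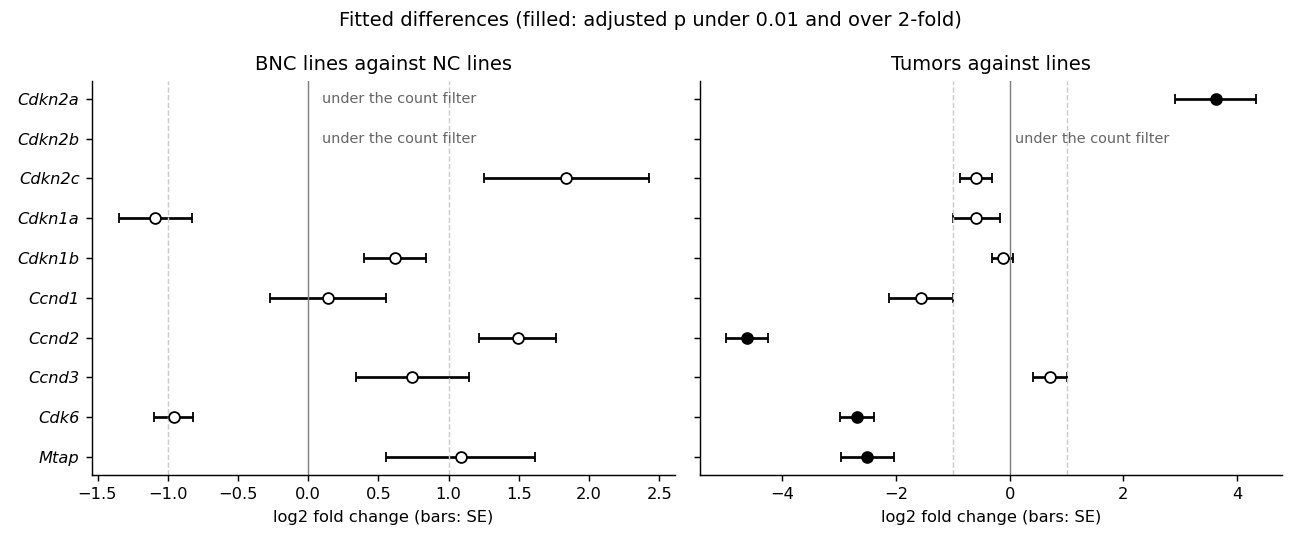
Fitted log2 fold change of each gene, BNC against NC lines on the left and tumors against lines on the right, with bars of 1 SE. Filled points pass an edgeR adjusted p under 0.01 with a change over 2-fold. None is filled on the left, and Cdkn2a (higher), Ccnd2, Cdk6 and Mtap (lower) are filled on the right.

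Levels per kilobase of exon put the genes on one scale, with the union of annotated exons as the length. The order can change with the length taken: Ccnd3 has 8775 bp by this union and 3858 bp in its longest transcript. In the BNC lines the order by median was Ccnd2 (188 CPM per kb), Mtap (172), Ccnd1 (148), Cdkn1a (63.7), Cdkn2c (40.0), Cdkn1b (28.8), Ccnd3 (10.3) and Cdk6 (1.62), where neighbors from Ccnd2 to Ccnd1 and the pair Cdkn2c and Cdkn1b overlapped over the 3 lines. In the NC lines Cdkn1a stood first at 144 CPM per kb, and overlapped with Ccnd1 at 88.6. Ccnd2 followed at 54.1 and Mtap at 41.5, which overlapped, and Cdk6 was again the lowest of the intact genes at 3.15 CPM per kb. In the tumors Cdkn1a was first as well, at 45.03 CPM per kb, ahead of Ccnd1 at 26.3, Cdkn1b at 18.9 and Ccnd3 at 12.1, and each overlapped with the next. Ccnd2, the first in the BNC lines, had rank 8 of the 10 genes in the tumors at 2.73 CPM per kb. Tests of these orders were not made.

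The share of each D cyclin in their summed RNA level per kilobase was then compared. Ccnd2 made up 54.3%, 54.6% and 36.1% of the sum in JB81, JB91 and JB97 and 36.7%, 19.4% and 36.7% in JB84, JB87 and JB93. The difference of 17.4 percentage points did not pass (exact permutation p = 0.3, two-sided, where 3 against 3 cannot go below 0.1). Ccnd1 made up 42.8%, 42.4% and 59.7% in the BNC lines and 60.6%, 77.1% and 60.2% in the NC lines, a difference of -17.7 points with no overlap (exact permutation p = 0.1, and 0.2 adjusted over the 6 tests made). In the tumors the share of Ccnd2 ran from 1.33% to 20.6%, and it was lower than in the lines by 31.1 points on average (exact permutation p = 0.00040, adjusted 0.0024). Only B45, at 20.6%, reached the range of the lines, where JB87 was lowest. The share of Ccnd3 was 2.64% to 4.29% in the lines and 5.68% to 59.5% in the tumors, 25.2 points higher on average with no overlap (exact permutation p = 0.0014, adjusted 0.0042). With each close pair of lines summed the adjusted values were 0.0168 for Ccnd2 and 0.042 for Ccnd3. Ccnd1 had 34.0% to 92.8% in the tumors, and the difference of 5.94 points from the lines did not pass (exact permutation p = 0.51). The 3 cyclins together were at 20.1 to 157 CPM per kb in the tumors, 288 to 346 in the BNC lines and 145 to 296 in the NC lines.

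**Figure D5:**
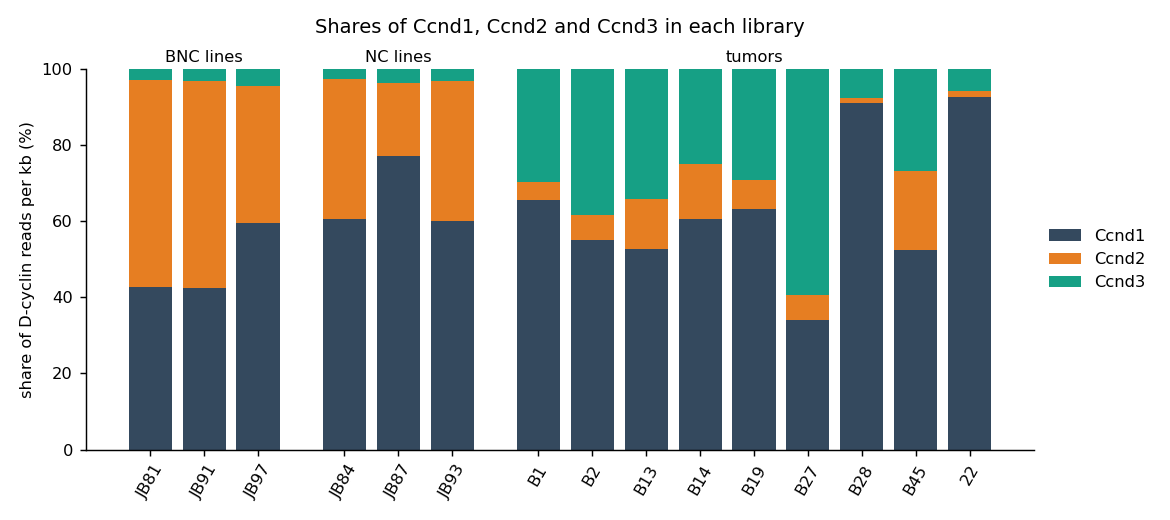
Share of Ccnd1, Ccnd2 and Ccnd3 in the summed D-cyclin level (CPM per kb of exon) of each library, in percent, with the libraries along the axis by group. Ccnd2 takes 19.4% to 54.6% in the lines and 1.33% to 20.6% in the tumors, and Ccnd3 reaches 59.5% in B27.

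In tumor tissue Ccnd2, Cdk6 and Mtap were called lower than in the lines, 3 of the 8 members other than Cdkn2a and Cdkn2b, against 11.5% of all 15675 genes tested. Cdkn2a, described above, was called higher, as were 28.2% of all genes. Ccnd2 had a lowest, median and highest level of 18.8, 25.7 and 98.3 CPM in the tumors and was at least at 502 CPM in each line, a 24.6-fold difference (log2 -4.62 ± 0.37 SE, edgeR adjusted p = 2.61e-07). Cdk6 had 1.44, 6.19 and 6.78 CPM in the tumors against 21.4 to 46.5 CPM in the lines (log2 -2.69 ± 0.30 SE, edgeR adjusted p = 5.34e-06). Mtap had 22.2, 31.1 and 129 CPM in the tumors against 130 to 569 CPM in the lines (log2 -2.50 ± 0.46 SE, edgeR adjusted p = 0.000381). In these 3 genes no tumor overlapped with a line, as in 25.1% of all genes, although B28 (129 CPM) and 22 (126 CPM) came close to the lowest line for Mtap, JB93 at 130 CPM. Tumors and lines had also been run under different sequencing prefixes, so that tissue, culture and run cannot be told apart. Leukocyte, endothelial, muscle, erythroid and lung markers rose with the tumors (leukocyte 13 of 13 called higher, endothelial 4 of 5, muscle 3 of 4, erythroid 3 of 3, lung 1 of 2 tested). In every line 9 of 13 leukocyte, 2 of 5 endothelial, 2 of 4 muscle, 3 of 3 erythroid and 3 of 3 lung genes were at 3 counts or fewer. Those of them that were tested entered only through the tumors, so their calls are weak evidence. The part of these markers in the lower level of members was not tested.

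Of the other tested members 5 did not pass. Ccnd1 was at 49.8, 124 and 673 CPM (lowest, median and highest) in the tumors and at 415 to 1076 CPM in the lines, with an edgeR adjusted p of 0.0268 for a log2 difference of -1.56 ± 0.57 SE. Here B28 (673 CPM) and 22 (642 CPM) lay within the range of the lines, and the next tumor was at 205 CPM. Without these 2 libraries the log2 difference was -2.63. They were left out after their Ccnd1 values were seen, which by itself widens the difference, so no p is given for it. Cdkn1a ran from 62.1 to 470 CPM with a median of 160 CPM (edgeR adjusted p = 0.236), and its 2 highest tumors, B1 (470 CPM) and B27 (447 CPM), were other ones. Cdkn1b had a median of 85.9 CPM in the tumors and 84.6 CPM in the lines (log2 -0.12 ± 0.18 SE). Cdkn2c was at 18.03 to 42.5 CPM in the tumors, within the range of the lines (edgeR adjusted p = 0.0813). Against the BNC lines alone Cdkn2c passed as lower in the tumors (log2 -1.51, edgeR adjusted p = 0.00205). Against the NC lines alone its log2 difference was 0.33 (edgeR adjusted p = 0.474). Ccnd3 was at 47.4 to 217 CPM, and it was the only D cyclin of the 3 with a positive log2 difference, 0.70 ± 0.30 SE (edgeR adjusted p = 0.0531). Over all genes tested the median log2 difference was 0.38.

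The other genes of the pathway were taken as lists chosen with earlier results of these data known, and they are described by counts alone. In the lines edgeR put 1 gene past the threshold, Tfdp2, a partner that E2F factors need to bind DNA. It was at 25.2 to 29.8 CPM in the BNC lines and 67.9 to 75.9 CPM in NC lines (log2 -1.38 ± 0.15 SE, edgeR adjusted p = 0.00885). With the close pairs summed, with the replicate block, or without JB84, JB91 or JB93, edgeR called 0 genes, so Tfdp2 did not pass. Of 13 genes of the Rb and E2F families it was the only one called in the main fit. Of 9 further G1 and S phase kinases and cyclins none was, and of 8 genes for turnover of cyclins and inhibitors none was. Over all genes tested 1.10% were called. Rb1, the gene of Rb itself, had a log2 difference of -1.40 (edgeR adjusted p = 0.0156) and was named after its value was seen. Mdm2, the ubiquitin ligase of p53 and like Cdkn1a a target of p53, had -1.25 (edgeR adjusted p = 0.0257). An edgeR adjusted p under 0.05 was reached by 3 of the 13 Rb and E2F genes, 1 of 5 upstream regulators and 14.2% of all genes. With the close pairs summed 0 genes reached it. Of 12 E2F target genes of S phase entry none was called in the lines by edgeR. All 12 had positive values, with a median log2 difference of 1.05 against -0.00 over all genes. The close pair JB84 and JB93 lay below the other 4 lines in 12 of 12, whereas JB87 was at or above the lowest BNC line in 7 of 12. The share of all genes with the same order of lines was not computed, so these counts describe the list alone. Rrm2, for example, was at 324, 320 and 356 CPM in JB81, JB91 and JB97, at 414 CPM in JB87 and at 63.5 and 61.7 CPM in JB84 and JB93.

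In the tumors most genes called in these lists were lower than in the lines. Of all 15675 genes tested 11.5% were called lower and 28.2% higher, and their median log2 difference was 0.38. Of the 12 E2F targets 11 were called lower, with a median log2 difference of -1.86. Rrm2, a subunit of the enzyme that makes deoxynucleotides, was at 7.67 to 60.3 CPM in the tumors and 61.7 to 414 CPM in the lines (edgeR adjusted p = 0.000124). Mcm2, part of the replicative helicase, was at 13.4 to 61.8 CPM against 75.9 to 346 CPM (edgeR adjusted p = 3.06e-05). Of the 9 G1 and S phase genes 4 were called lower and none higher, among them Cdk4, the other partner of the D cyclins, at 63.4 to 218 CPM against 203 to 456 CPM (edgeR adjusted p = 0.00124). In the Rb and E2F list 4 were lower and 1, E2f2, was higher, and in the turnover list 1, Skp2, was lower and 1, Fbxo31, higher. Of 5 upstream regulators 4 were lower, among them Yap1, the factor that the Nf2 pathway holds back (log2 -1.03 ± 0.15 SE, edgeR adjusted p = 7.03e-05). Against this direction stood Cdkn1c, which encodes p57, the third inhibitor of the p21 family. It was at 3.11 to 56.6 CPM in the tumors and at most 2.03 CPM in a line (log2 4.49 ± 0.77 SE, edgeR adjusted p = 0.000209). Cdkn1c was highest in B2 (56.6 CPM), which had the most lung marker RNA (44251 CPM). Next came B19 (25.7 CPM), B1 (24.7 CPM) and B45 (16.7 CPM), which were rich in muscle marker RNA, though B13, also rich in it, had 5.26 CPM. The part of host tissue in Cdkn1c was not tested. Fbxo31, an F-box protein that targets cyclin D1 for degradation, was at 20.6 to 305 CPM against 14.2 to 24.7 CPM (edgeR adjusted p = 0.00269). It was highest in B19 (305 CPM), B1 (252 CPM), B45 (132 CPM) and B13 (93.9 CPM), the tumors with the most muscle marker RNA (25786, 27635, 18970 and 6870 CPM), and at most 47.2 CPM in the others. The part of muscle in it was not tested.

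The genes whose log2 level followed each member most closely over the 15 libraries were taken from the 15675 genes tested. These libraries share run, tissue or culture within groups, so r describes them and carries no p. For Ccnd2 they were Fat1 (r = 0.99) and Nfatc3 (0.98), and for Cdk6 Gtf2f1 (0.98) and Mak16 (0.98). For Mtap they were Cenpn (0.98) and Nde1 (0.98). Ccnd1 was closest to Kif20b (0.95) and Taf5 (0.95), and Cdkn2c to Wdr6 (0.94) and Trim35 (0.93). Cdkn2a was closest to A2m (0.95) and Catip (0.94), both of which, like Cdkn2a, came close to 0 CPM in a library. Ccnd3 was closest to Gmppb (0.92) and Csk (0.92), Cdkn1a to Nelfe (0.92) and Eif4e2 (0.90), and Cdkn1b to Nptn (0.89) and Sav1 (0.85). Among the members themselves the closest pair was Ccnd1 and Mtap (0.90), followed by Ccnd2 and Mtap (0.84) and Ccnd2 and Cdk6 (0.82).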

How the data were processed

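RNA was sequenced from 15 libraries (6 lines, 9 tumors) and DNA from 14 tumors. The authors deposited whole-number counts per gene, made from single-end reads of poly-A RNA mapped to mm10 with TopHat2 (2.0.12) and counted with HTSeq-count, without normalization; the strand setting is not given in the sources used here. The DNA table was deposited as log2 ratios to normal tail DNA in 20-kb bins, corrected for GC content and mappability, from reads aligned with BWA (7.10). Placeholders, 0.603% of its values, were left out. All 15 RNA and 14 DNA columns were used. The genotype of each line was tied to its column by line name, through the column heads of the study's own comparison table, whose values were not used. The 9 RNA columns that are no line were taken as the tumors, without genotype.

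Counts were fitted with edgeR (4.0.16, R 4.3.3) by its quasi-likelihood test with TMM scaling over genes kept at a minimum count of 10, lines alone for BNC against NC and all libraries for tumors against lines. Calls needed a Benjamini-Hochberg adjusted p under 0.01 and a change over 2-fold. Standard errors are the log2 fold change divided by the root of F, and levels per kb use the union of annotated exons. The script was tested on simulated data. Shares and correlations were tested by two-sided exact permutation. Nothing says whether lines came from separate mice, so p-values measure the spread between these libraries. Alternatives were DESeq2 (1.42.0), other scaling and filters, a replicate block, the run prefix in the column headers, close pairs summed, and each library left out. The replicate numbers did not pair the lines, since same-numbered deviations correlated at -0.07, 0.08 and 0.10.

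The members and lists were chosen with earlier results of these data known. The named genes are all members, the targeted genes, the called or else first-ranked gene or genes of each pathway list (up to 3), neighbors above 10 counts within 500 kb, and the 2 genes nearest to each member. Rb1 was chosen after its value was seen. The limit that a count of 0 allows covers counting error only.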

Additional observations from a re-analysis of the deposited data

Results flagged for a closer look

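Of 12 sets of values tested for 1 sample far from the rest, 1 was flagged, where chance alone flags about 1 in 20. It was the level of Ccnd2 over the 9 tumors. B14 had 98.3 CPM, and its gap to the next tumor was 0.686 of the whole range, above the 95% critical value of Dixon's test for 9 samples. B14 also had the highest summed leukocyte markers (7687 CPM) and mesothelial markers (4768 CPM) of the 9 tumors, and their part in its Ccnd2 level was not tested. At 98.3 CPM it remained below the lowest line, JB84 at 502 CPM.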

How the results depend on the processing

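Of the values for single genes, 324 under an alternative stayed on the same side of the threshold with the same direction, 10 newly passed it, 1 no longer passed and 8 changed sign; of the summary values 234 stayed, 23 moved and 16 changed sign. The causes were not tested. BNC against NC lines, 136 genes were called by edgeR. DESeq2 called 1996, a filter of at least 10 counts in every sample left 83, the run prefix as covariate left 1, and an adjusted p under 0.05 with no fold threshold gave 1761. With the replicate block edgeR called 0 (2146 at an unadjusted p under 0.05), with JB97 numbered 3 in the block 0 (3756), and with the close pairs summed 0 (1508), where DESeq2 called 585. Leaving out 1 line gave 0 to 2574 calls, the highest without JB87 and 984 without JB97. Of the members DESeq2 called 3, and leaving out 1 line gave 0 to 2. Tumors against lines, 6220 genes were called, 2796 with at least 10 counts in every sample, 4062 against the NC lines alone and 9600 at an adjusted p under 0.05. Scaling by library size alone moved the median of all genes from -0.00 to -0.14 in the lines and from 0.38 to 0.27 in the tumors.

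The log2 difference of Ccnd1 between lines (0.14) became -0.066 with the replicate block, -0.055 with pairs summed (-0.022 by DESeq2) and -0.10 to 0.78 with 1 line left out, where -0.10 was without JB93 and -0.09 without JB84. Against the NC lines alone the tumor differences of Cdkn2c and Cdkn1b were 0.33 and 0.20, and Cdkn1b was at 0.11 with 10 counts in every sample. The difference in Ccnd3 share between lines (0.317 points) was -0.110 by coding length and -0.134 to 0.573 with 1 line left out. Correlations with the leukocyte score that changed sign were Ccnd2 with the other host lists (-0.27) and Cdk6 with the summed CPM (0.043), Cdkn1b (0.23) and Cdkn2c (0.13) without the 2 farthest tumors, and, without B28 and 22, Cdkn2a (0.57), Cdkn1b (0.46), Cdkn2c (0.39), Ccnd1 (0.32), Mtap (0.10) and Ccnd2 (-0.058). With 1 tumor left out r ran from -0.43 to 0.054 for Cdkn2a, from -0.44 to 0.29 for Cdkn1b and from -0.36 to 0.18 for Cdkn2c. DNA medians over bins within 100 kb were -0.24 for Cdkn2b, -0.021 for Ccnd2 and -0.090 for Mtap. The block with JB97 as 3, DESeq2 on summed pairs and leaving out B28 with 22 or B1 with B13 were chosen after seeing the data. Depth limits Cdkn2a and Cdkn2b, whose counts in the lines were too low to test.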

Other observations

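The lines outside the close pairs, JB97 (BNC) and JB87 (NC), had like levels of several members across the genotypes. Cdkn2c was at 41.8 CPM in JB97 and 41.2 CPM in JB87, while JB81 and JB91 were at 107 and 112 CPM and JB84 and JB93 at 13.6 and 15.7 CPM. Ccnd3 was at 109 CPM in JB97 and 91.2 CPM in JB87. Ccnd1 was highest of the 6 lines in JB87 (1076 CPM), followed by JB97 (810 CPM). Mtap was at 250 CPM in JB97 and 359 CPM in JB87, between the close pairs at 554 to 569 CPM and 130 to 134 CPM. In Cdk6 (25.6 CPM in JB97 and 39.9 CPM in JB87) and Ccnd2 (978 and 541 CPM) these lines also lay between the close pairs, though each genotype stayed apart from the other. Whether the groups differ in these genes by genotype or by the pair that was sampled cannot be told apart with 3 lines a group.

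Tumors B28 and 22 were nearer to the lines than the other tumors were in Ccnd1 (673 and 642 CPM) and Mtap (129 and 126 CPM), and nearer to the NC lines in Gm12606 (110 and 110 CPM), which was at most 0.711 CPM in a BNC line. They were not nearer in Ccnd2 (19.6 and 21.4 CPM). In Cdk6 (6.19 and 6.72 CPM) they lay in the upper part of the range of the other 7, 1.44 to 6.78 CPM. They also had the lowest leukocyte scores, 4.14 and 4.60, although by the summed CPM of the markers B45 lay below 22. These tumors were set apart after their values were seen.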
